A study of Homo sapiens with 10 samples.

Results

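Ribosome biogenesis and MYC target genes were followed here as a group of 35 genes across D425 and HD-MB03 cells, cultured lines of Group 3 medulloblastoma, a childhood tumour of the cerebellum. The genes were chosen by name, and their identifiers were found in the deposited count files for 35 of 35. All 35 passed the filter on low counts, among 16006 genes tested of 57820 in the files. They fall into 7 roles: transcription by RNA polymerase I (POLR1A, POLR1B, UBTF, RRN3), box C/D particles (FBL, NOP56, NOP58), box H/ACA particles (DKC1, GAR1, NHP2), nucleolar chaperones, scaffolds and regulators (NCL, NPM1, NOLC1, GNL3, MYBBP1A, DDX21), small subunit processing (HEATR1, UTP20, WDR43, NOP14, RRP9, RRP12, BYSL, NOB1, NAT10), large subunit processing (PES1, WDR12, PPAN, RRS1, NOP2, NOP16, LAS1L), and polyamine and pyrimidine synthesis (ODC1, SRM, CAD).

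The study set out to lower CRX, a homeobox transcription factor of photoreceptors, with short hairpin RNA from a lentiviral vector that doxycycline switches on. D425 was represented by 2 libraries of parental cells, 1 of cells with the empty vector and 3 labelled shCRX. For HD-MB03 there were 1 library of parental cells, 1 of cells with the empty vector and 2 labelled shCRX. The transduced cells were stable polyclonal populations, the labels give 4 µg/ml doxycycline over 72 h for all 10 libraries, and they do not say which of the hairpins a library carries. Poly(A) RNA was sequenced. Parental and vector libraries were pooled as the controls of their line, which gave arms of 3 and 3 libraries in D425 and of 2 and 2 in HD-MB03.

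Ribosomes begin in the nucleolus, where RNA polymerase I copies the ribosomal DNA into one long precursor. Small nucleolar ribonucleoproteins methylate it (box C/D) or convert its uridines to pseudouridine (box H/ACA), and large complexes then cut and fold it into the small and the large subunit. MYC, a transcription factor that binds DNA with its partner MAX, is known to raise transcription of many of these genes and of the enzymes that make polyamines and nucleotides. Both lines are known to carry extra copies of MYC.

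Between 1956353 and 18061910 reads were counted in genes per library. The HD-MB03 parental and vector libraries were the shallowest, and 30.9% and 26.4% of their reads did not align, against 4.54% to 7.99% in the other 8. CRX itself dropped in D425 from 47.4 ± 17.6 CPM (reads per 1000000 counted, scaled for library composition) to 22.2 ± 2.74 (SD, n = 3 per arm). Its log2 fold change there was -1.10 ± 0.26 (SE, edgeR adjusted p = 0.0436), a call lost without any 1 library other than D425 parental replicate 2 (values of -1.23 to -0.81). In HD-MB03 it stood at 12.41 ± 0.113 CPM in the controls and 25.6 ± 3.00 in the libraries labelled shCRX (SD, n = 2 per arm, log2 fold change 1.04, edgeR adjusted p = 0.174), against the label. Any direction given for HD-MB03 therefore follows the label alone. Library numbers from 20 to 62 (D425 shCRX and HD-MB03 controls) and from 110 on (the other 5) coincide with the arms within each line, so number set and arm cannot be told apart there. Were such a difference the same size in both lines, it would drop out of their mean and of the comparison between them, and fall on the difference of the label's effect. Of 7 Group 3 marker genes, MYC, OTX2, IMPG2, GABRA5 and NRL were detected in every library, NPR3 was at 0 in 7 of 10, and MAB21L2 was at 0 in 3 of the 4 HD-MB03 libraries. The summed level of 8 fibroblast markers was 5.0 to 16.6 CPM, of 6 immune markers 2.12 to 14.8, of 4 endothelial markers 0 to 1.73, of 5 epithelial markers 0.143 to 30.8 (highest in HD-MB03 shCRX replicate 2) and of 6 astrocyte and oligodendrocyte markers 0 to 12.5. In bulk RNA, fewer cells of a type and less RNA per cell cannot be told apart.

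The 35 genes together took between 0.833% and 1.25% of all counted reads. Per kilobase of exon the levels ran over a wide range, from NPM1 and NCL, abundant nucleolar proteins that bind RNA and chaperone assembly, at 538 and 277 CPM per kb (mean of the 4 group means), to PPAN, a large subunit processing factor, at 2.62. ODC1, the rate-limiting enzyme of polyamine synthesis, stood at 208 CPM per kb and FBL, the methyltransferase of box C/D particles, at 206. NOLC1 and DDX21 followed at 142 and 141. Of the RNA polymerase I genes, UBTF, which shapes the ribosomal DNA promoter, was highest at 43.6 CPM per kb, and the initiation factor RRN3 was lowest at 13.4. The highest member was NHP2 at 75.9 among box H/ACA proteins, NOB1 at 78.5 among small subunit factors and PES1 at 40.6 among large subunit factors. The median SD of log2 levels between libraries of a group was 0.264 for the members and 0.341 for all genes tested, and 0.284 for the 10567 genes at or above the lowest member's mean. The steadiest member was CAD, at 0.139, and the most variable was GAR1, at 0.457.

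**Figure D1:**
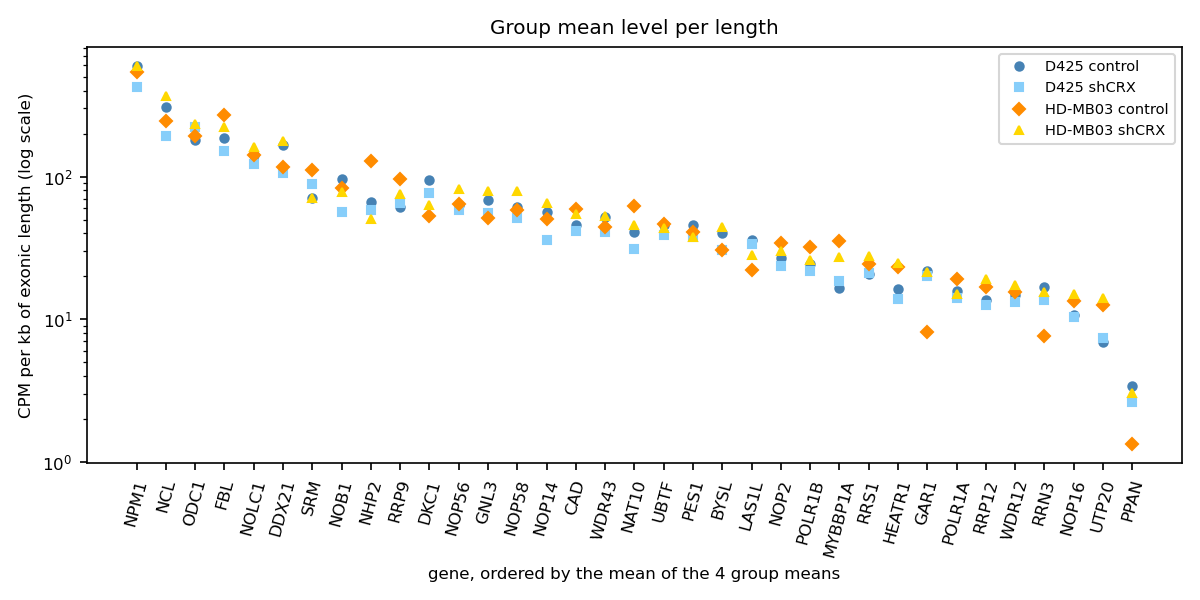
Mean level of each gene per kilobase of exon in the 4 groups (CPM per kb, log scale), with genes ordered by the mean of the group means. NPM1 leads at 538 CPM per kb and PPAN, whose exons overlap a read-through gene, is lowest at 2.62. The HD-MB03 control mean stands apart from the other 3 groups for RRN3, GAR1, NHP2 and PPAN.

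Some of these genes share exons or sequence with other genes. Reads that fit more than 1 gene can be left out of a gene's count, so such values can be too low. Per library, 4.04% to 5.73% of reads were set aside as ambiguous between genes. NPM1 has 45 named pseudogenes in the GENCODE annotation, NOP56 has 3, and RRN3, NHP2, NCL, PES1 and SRM have 2 each. PPAN overlaps P2RY11 and the read-through gene PPAN-P2RY11 on its own strand. Its place as the lowest member may therefore reflect reads left out of its count, which was not tested. Same-strand overlap was also listed for HEATR1 (AL359921.1), RRS1 (AC009879.2) and NOP2 (AC006064.6). Exons of NOB1, NHP2, MYBBP1A, HEATR1 and NOP14, among others, overlap genes on the opposite strand (RMND5B for NHP2, SPNS2 for MYBBP1A, LGALS8 for HEATR1), and the sources used here do not give the strand setting of the counts.

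The E-box CACGTG, the sequence bound by MYC with MAX, was searched in the RefSeq promoters (GRCh38.p14, 250 bases before to 50 after each gene's start). It is its own reverse complement, so one search covers both strands. It was found in 11 of the 31 members with an entry (35.5%), against 7.43% of 27305 promoters. These shares are a description, as the members were chosen by name as ribosome biogenesis and MYC target genes. The 27305 promoters also cover genes that are not among the 16006 tested. The 4 members without an entry were NOLC1, NOP58, RRP12 and RRS1. The match began before the start in NAT10, RRP9, SRM and UTP20 and at or after it in BYSL, FBL, MYBBP1A, NOP14, NOP2, PES1 and WDR43. None of the 4 members called for the label below (NOB1, RRN3, NHP2, DDX21) held these letters in this window, nor did the 4 called higher in D425 than in HD-MB03. Of the 6 with an entry that were called lower in D425, 4 held them, and HEATR1 and CAD did not. For MYBBP1A and NAT10 the levels of the lines overlapped. The sites of the 4 are shown because these members were called between the lines, with 10 bases on either side and the E-box in capitals. They lie at chr19:39846358-39846383 on the minus strand (FBL), chr17:4555342-4555367 on the minus strand (MYBBP1A), chr11:34105604-34105629 on the plus strand (NAT10) and chr12:101280085-101280110 on the plus strand (UTP20). A match describes the letters and not binding.
FBL: cgctcttttcCACGTGcgaaagcccc
MYBBP1A: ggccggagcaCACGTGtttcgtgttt
NAT10: tgcgcttgcgCACGTGctgtctacca
UTP20: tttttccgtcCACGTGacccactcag

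The libraries labelled shCRX were compared with the controls in each line. In D425 most of the 35 genes had lower estimates, but NOB1, the endonuclease that makes the last cut of small subunit RNA, was the only member that passed the test, among 219 genes called lower (1.37% of all tested, with 1.61% called higher and 2.97% in either direction). Thus 1 of 35 stood at about the background share. The median log2 fold change of the members was -0.23, against 0.02 for all genes tested, and 29 of 35 were negative, against 47.9% of all genes. Across all genes the estimates in D425 followed GC content (Spearman's rho 0.28, a description with no test). The part of GC content in the members' median was not tested. Estimates ran from -0.76 for NOB1 to 0.33 for SRM, and for 30 of 35 the 95% interval lay within a 2-fold change either way. In 9 members (DDX21, DKC1, HEATR1, NCL, NOB1, NOP14, NPM1, RRN3, WDR43) all 3 shCRX libraries lay below all 3 controls, which was so for 11.5% of all genes. No member (0 of 35) had all 3 above, against 11.5% of all genes.

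In HD-MB03, 2 members passed the test: RRN3 rose and NHP2, a core protein of box H/ACA particles, fell (0.262% of all genes were called higher, 1.24% lower and 1.51% in either direction). The median of the members was 0.17, against 0.10 for all genes. Here the estimates of all genes followed GC content in the other direction than in D425 (Spearman's rho -0.36, a description with no test). Estimates ran from -1.37 for NHP2 to 1.39 for GAR1, another box H/ACA core protein, and for 22 of 35 the 95% interval lay within 2-fold. In 17 members both shCRX libraries lay above both controls (30.5% of all genes did) and in 5 they lay below (21.8% of all genes).

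In the mean of the lines, 0 of 35 members passed (0.225% of all genes did, 0.0187% higher and 0.206% lower). An unadjusted p under 0.05 was seen for 5 (2118 of all 16006 genes), and DESeq2 called 1 (2.51% of all genes). The median was -0.05 (0.07 for all genes), and 32 intervals lay within 2-fold. The effect of the label itself differed between the lines for RRN3 and for the RNA helicase DDX21, both lower in D425 than in HD-MB03 on this measure (4.16% of all genes were called, 1.49% in this direction and 2.67% in the other). The median difference of the members was -0.33, against -0.12 for all genes. These differences share their libraries with the comparisons within the lines, and they lie along the split of the library numbers. Across all genes the difference followed GC content (Spearman's rho 0.40, a description with no test), and with a correction for GC content and length neither member kept its call. The estimates were then -0.96 for RRN3 (edgeR adjusted p = 0.0636) and -0.90 for DDX21 (edgeR adjusted p = 0.0768). With vector or parental libraries alone as controls, neither these differences nor the calls of NOB1, RRN3 and NHP2 within a line held, but few genes were then called at all. With vector controls 0.0481% of all genes were called in D425, 0.00602% in HD-MB03 and 0.018% for the difference, and with parental controls 0.609%, 0.363% and 1.33%. The estimates with vector and with parental controls were -1.02 and -0.65 for NOB1, 0.83 and 1.21 for RRN3 and -0.98 and -1.67 for NHP2, and the differences were -1.12 and -1.53 for RRN3 and -1.27 and -1.40 for DDX21.

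**Figure D2:**
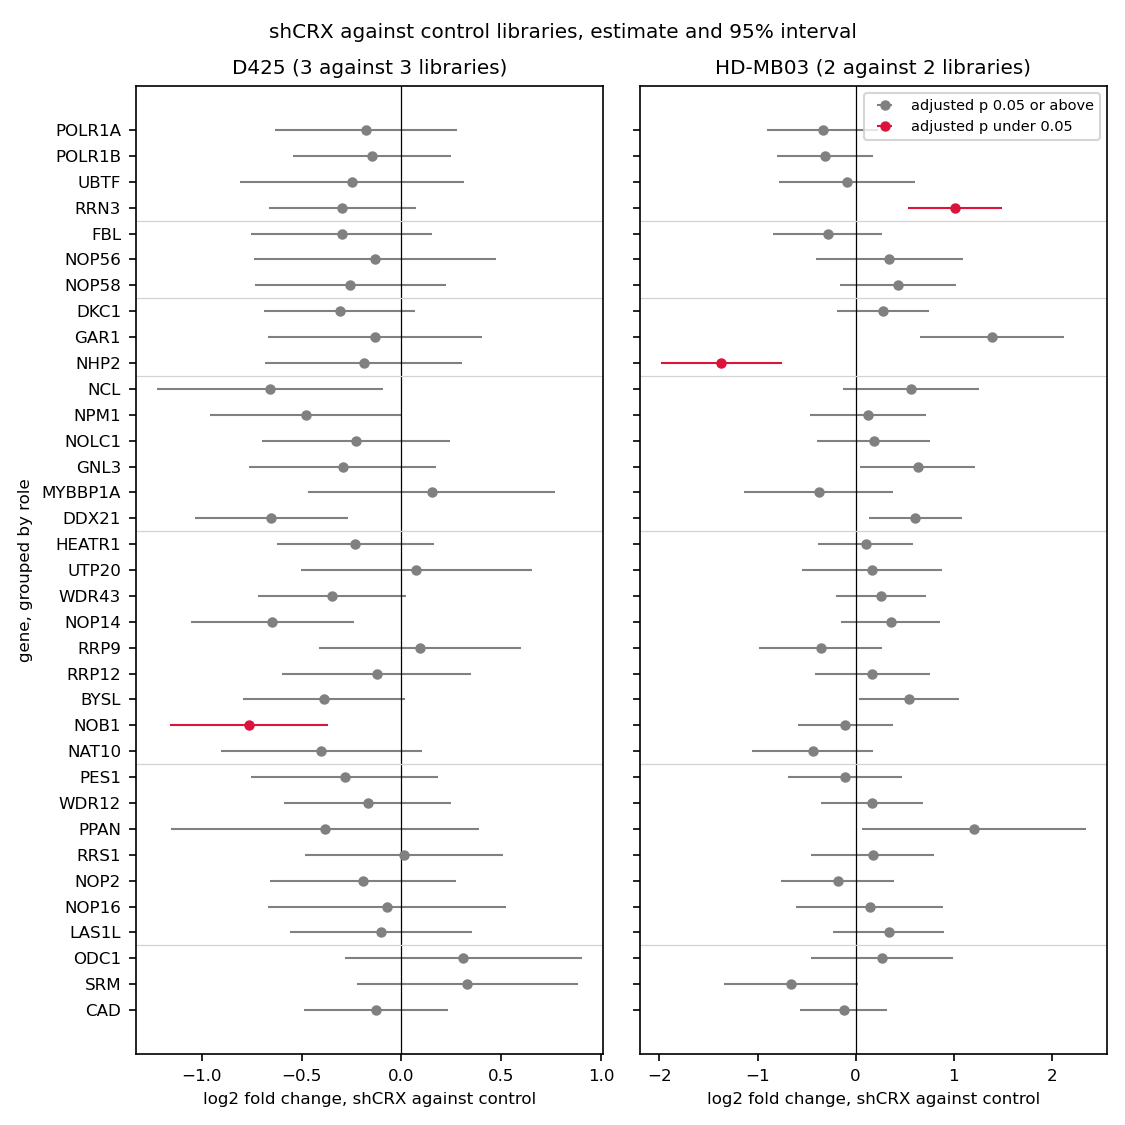
Log2 fold change of each gene, libraries labelled shCRX against controls, in D425 and in HD-MB03. Points are edgeR estimates, bars are 95% intervals not adjusted for the number of genes, and red marks an adjusted p under 0.05. Only NOB1 is red in D425, and RRN3 and NHP2 in HD-MB03.

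The 3 D425 libraries labelled shCRX differed among themselves over these genes. Summed over the 35 genes, the level was 11340, 12370 and 10870 CPM in parental replicates 1 and 2 and the vector library, and 7327, 10960 and 9037 CPM in shCRX replicates 1 to 3. Replicate 1 was the lowest and replicate 2 overlapped the controls. Relative to the D425 control mean, the median gene stood at log2 -0.54 in shCRX replicate 1, 0.11 in replicate 2 and -0.26 in replicate 3. All 35 members lay below the control mean in replicate 1, 13 did in replicate 2 and 31 in replicate 3, against 48.2%, 51.1% and 49.5% of all genes. Within the group, replicate 1 was lowest for 26 members (35.5% of all genes) and replicate 2 was highest for 32 (36.4% of all genes). Without shCRX replicate 2 the median log2 fold change was -0.43 in place of -0.23. Without shCRX replicate 1 it was -0.12.

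Markers of proliferation and MYC varied over the same libraries. The summed level of 8 proliferation genes (MKI67, TOP2A and others) was 1944, 1952 and 1326 CPM in the D425 parental and vector libraries and 1052, 2390 and 1556 in shCRX replicates 1 to 3, and each of the 8 was detected in every library. MYC stood at 2729, 2975 and 2031 CPM in the D425 controls and at 968, 1909 and 1981 in shCRX. Its log2 fold change was -0.67 ± 0.27 (SE, edgeR adjusted p = 0.209). Of the D425 libraries, shCRX replicate 1 was lowest for both sums and for MYC. The part of proliferation or of MYC in the levels of the 35 genes was not tested.

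In HD-MB03 the summed level of the 35 genes was 10250 CPM in the parental and 12180 in the vector library, and 12550 and 12740 in the shCRX libraries. NCL and NPM1 were both lower in the parental than in the vector library. Without them the order of the controls turned, with sums of 7605 CPM in the parental and 7288 in the vector library, and 7800 and 7932 in shCRX. Proliferation genes summed to 2250 and 3249 CPM in the controls and 2976 and 2859 in shCRX, and MYC stood at 5221 and 3943 against 3513 and 4113 (log2 fold change -0.27 ± 0.33, edgeR adjusted p = 0.715).

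**Figure D3:**
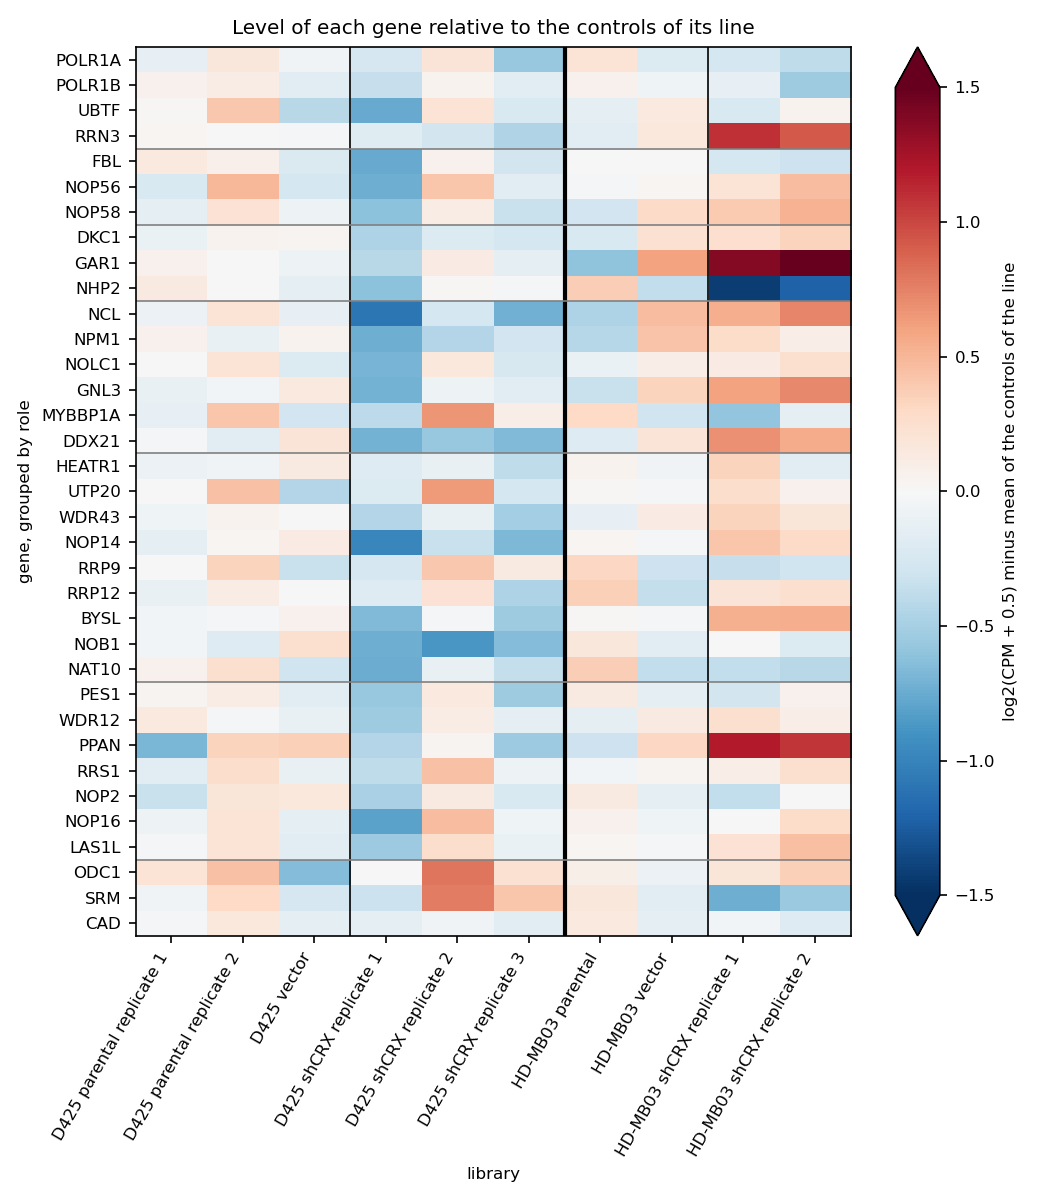
Level of each gene in every library as log2(CPM + 0.5) minus the mean of the controls of its line, with genes grouped by role. D425 shCRX replicate 1 is blue in nearly every gene, D425 shCRX replicate 2 is mixed, and RRN3, GAR1, NHP2 and PPAN stand out in the HD-MB03 shCRX libraries.

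Between the lines, with both arms averaged, 11 of 35 members passed the test, fewer than the 46.0% of all genes that did (24.4% higher and 21.6% lower in D425). The 4 higher in D425 were RRN3, DKC1, GAR1 and LAS1L. The 7 lower in D425 were FBL, MYBBP1A, HEATR1, UTP20, RRP12, NAT10 and CAD. The median log2 difference, D425 minus HD-MB03, was -0.23 (0.05 for all genes), 29 of 35 were negative (48.0% of all genes), and for 31 members the 95% interval lay within 2-fold. The lines did not overlap in any library for CAD, FBL, HEATR1 and UTP20, all lower in D425 (13.8% of all genes), and for DKC1, higher in D425 (15.3%). Among controls alone 4 members were called higher in D425 and 3 lower, NHP2, MYBBP1A and UTP20 (34.3% of all genes were called, 17.4% higher and 16.8% lower). Among shCRX libraries alone 0 were called higher and 5 lower, NCL, DDX21, HEATR1, UTP20 and NOP14 (32.8% of all genes, 16.9% higher and 15.9% lower). Within 1 arm the lines also differ in library numbers. With vector libraries alone as controls, UTP20 was the 1 member of 35 still called between the lines (27.7% of all genes were), and with parental libraries alone FBL, LAS1L and CAD lost their calls (32.4% of all genes were called). MYC itself was lower in D425, by -1.03 ± 0.21 (SE, edgeR adjusted p = 0.00138), a call kept in all 20 alternatives tried. MYCL, a relative, stood at 13.9 to 47.2 CPM in D425 and 25.5 to 41.5 in HD-MB03 (edgeR adjusted p = 0.822), and MYCN had 0 to 5 counts per library and was not tested.

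**Figure D4:**
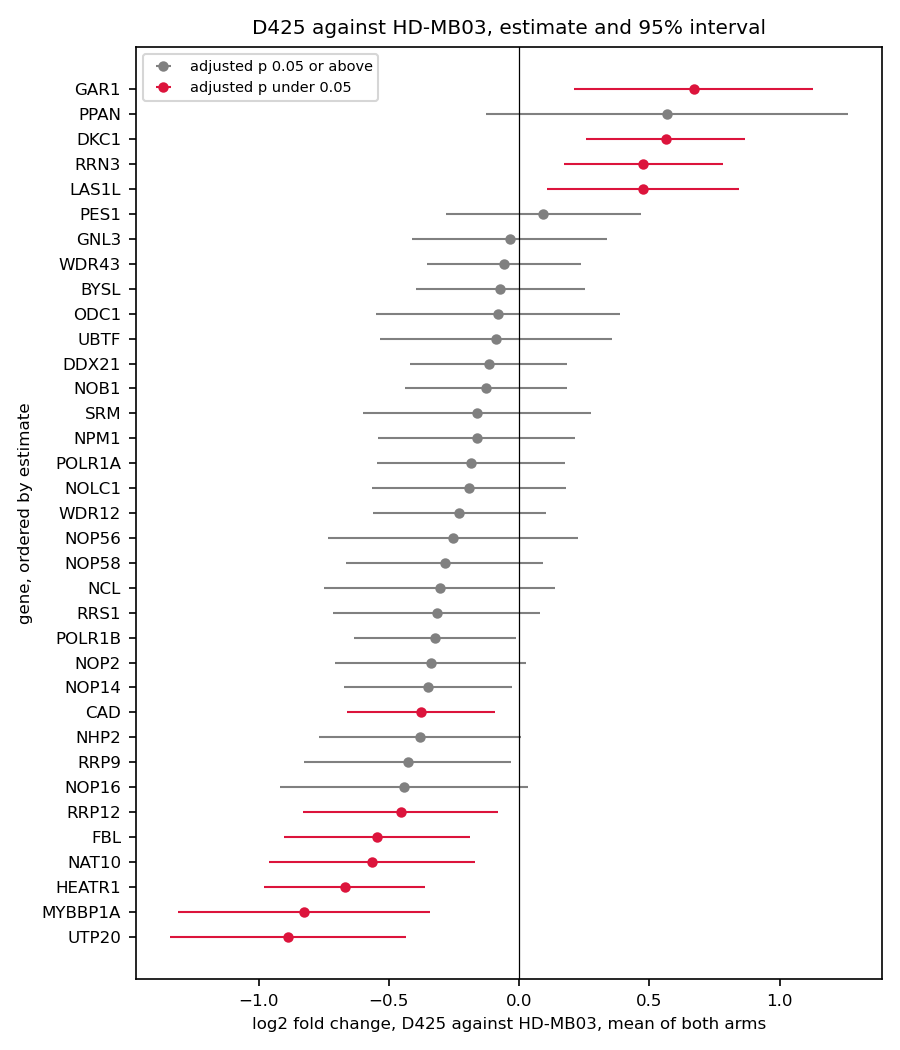
Log2 fold change of each gene, D425 against HD-MB03 averaged over both arms, ordered by estimate. Points are edgeR estimates, bars 95% intervals not adjusted for the number of genes, and red marks an adjusted p under 0.05. UTP20 is lowest at -0.89 and GAR1 highest at 0.67.

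Among the RNA polymerase I genes RRN3 stood apart. RRN3 (ENSG00000085721.8) recruits the polymerase to the promoter. It was at 70.9, 69.7 and 68.1 CPM in the D425 parental and vector libraries, 61.4, 57.5 and 50.9 in D425 shCRX, 28.1 and 35.4 in the parental and vector libraries of HD-MB03, and 68.0 and 60.3 in HD-MB03 shCRX. The HD-MB03 controls were thus the low group, and the other 8 libraries lay between 50.9 and 70.9. The log2 fold change was 1.01 ± 0.22 in HD-MB03 (SE, edgeR adjusted p = 0.0441), from 120 counts in the controls, and -0.30 ± 0.17 in D425 (edgeR adjusted p = 0.406). The difference was -1.31 ± 0.28 (edgeR adjusted p = 0.0217), and D425 was higher than HD-MB03 by 0.48 ± 0.14 (edgeR adjusted p = 0.0145). The HD-MB03 call was lost with DESeq2 size factors (0.95), limma-voom (1.01), equal depth (0.92) and the correction for GC content and length (0.79). It was also lost without D425 parental replicate 1 (1.0) or 2 (0.98), the D425 vector library (1.0), D425 shCRX replicate 3 (0.99), the HD-MB03 parental (0.88) or vector library (1.21), or HD-MB03 shCRX replicate 1 (0.93) or 2 (1.11). The difference was lost without D425 parental replicate 1 (-1.29), D425 shCRX replicate 3 (-1.24), the HD-MB03 parental library (-1.18) or HD-MB03 shCRX replicate 1 (-1.23), and the line call without the HD-MB03 parental library (0.41) or HD-MB03 shCRX replicate 2 (0.43).

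UBTF, the most abundant of the 4, was not called in any comparison. It stood at 318, 413 and 234 CPM in the D425 parental and vector libraries, 185, 361 and 267 in D425 shCRX, 292 and 356 in the parental and vector libraries of HD-MB03, and 275 and 334 in HD-MB03 shCRX, and the groups overlapped throughout. The polymerase subunits POLR1A and POLR1B ranged from 144 to 294 CPM and from 120.7 to 212 CPM. Both HD-MB03 shCRX libraries lay below both controls for each, with log2 estimates of -0.33 and -0.31 (edgeR adjusted p = 0.546 and 0.51).

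Box C/D particles carry the guide RNAs that direct methylation. FBL (ENSG00000105202.3) stood at 444, 421 and 343 CPM in the D425 parental and vector libraries, 236, 417 and 329 in D425 shCRX, 582 and 588 in the parental and vector libraries of HD-MB03, and 487 and 473 in HD-MB03 shCRX. Every D425 library lay below every HD-MB03 library, and the line difference was -0.55 ± 0.16 (SE, edgeR adjusted p = 0.016), lost without HD-MB03 shCRX replicate 1 (-0.53). The label's effect on FBL was similar in size in both lines and was not called in either (-0.30 in D425 and -0.29 in HD-MB03, with a difference of -0.01 and a 95% interval of -0.73 to 0.70). The core proteins NOP56 and NOP58 ranged from 200 to 479 CPM and from 131 to 272 CPM and were called in no comparison.

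The box H/ACA proteins had estimates in opposite directions in HD-MB03. NHP2 (ENSG00000145912.4) was at 110, 100 and 89.5 CPM in the D425 parental and vector libraries, 64.5, 101 and 98.0 in D425 shCRX, 244 and 146 in the parental and vector libraries of HD-MB03, and 70.3 and 81.1 in HD-MB03 shCRX. Both HD-MB03 controls lay above all 8 other libraries and differed from each other. In HD-MB03 NHP2 fell by 1.37 ± 0.28 log2 units (SE, edgeR adjusted p = 0.0357), while the D425 value was -0.19 ± 0.23 (edgeR adjusted p = 0.735) and the difference between the lines was not called (1.18, edgeR adjusted p = 0.0877). The HD-MB03 call did not hold without the parental library of that line, where the value was -0.93 (edgeR adjusted p = 0.34), and without HD-MB03 shCRX replicate 1 (-1.26) or 2 (-1.47) or D425 shCRX replicate 3 (-1.39).

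GAR1 (ENSG00000109534.12) ran the other way. It was at 47.0, 45.2 and 42.7 CPM in the D425 parental and vector libraries, 33.6, 49.01 and 40.9 in D425 shCRX, 9.89 and 23.6 in the parental and vector libraries of HD-MB03 and 40.6 and 46.8 in HD-MB03 shCRX. The HD-MB03 controls, with 63 counts between them, were below the other 8 libraries. The log2 fold change in HD-MB03 was 1.39 ± 0.34 (SE, edgeR adjusted p = 0.0673), which did not pass. D425 was higher than HD-MB03 by 0.67 ± 0.21 (edgeR adjusted p = 0.0206), a call lost without the HD-MB03 parental library (0.43), without HD-MB03 shCRX replicate 1 (0.62), or with values corrected for GC and length (0.40). Among shCRX libraries alone GAR1 was not called.

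DKC1 (ENSG00000130826.11), the pseudouridine synthase of these particles, gave the clearest line difference of the 3. It was at 373, 415 and 412 CPM in the D425 parental and vector libraries, 289, 347 and 333 in D425 shCRX, 187 and 255 in the parental and vector libraries of HD-MB03, and 260 and 275 in HD-MB03 shCRX. All 6 D425 libraries lay above all 4 of HD-MB03. The line difference was 0.56 ± 0.14 (SE, edgeR adjusted p = 0.00573), and it passed without any 1 library. It was 0.86 among controls alone (edgeR adjusted p = 0.00618). Among shCRX libraries alone DKC1 was not called (0.27, edgeR adjusted p = 0.314).

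**Figure D5:**
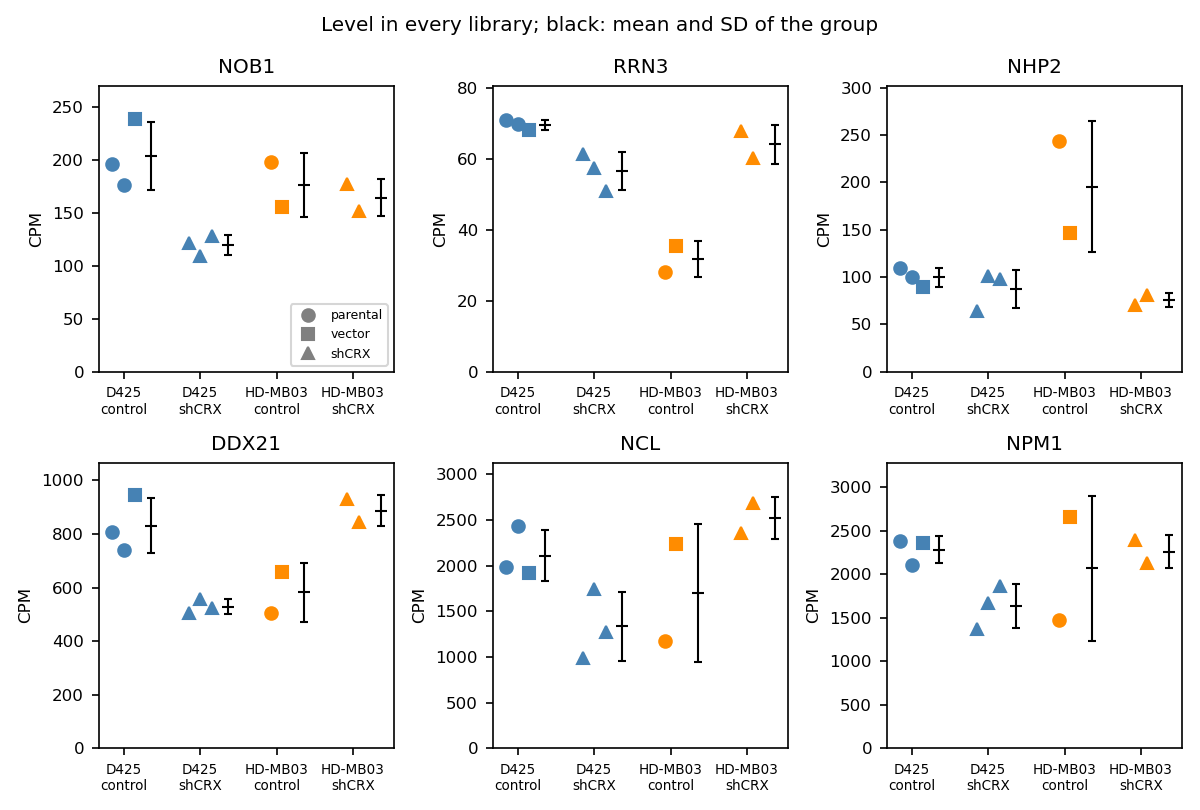
Level of 6 genes in every library (CPM on a linear axis from 0), with the mean and SD of each group in black. Circles are parental, squares vector and triangles shCRX libraries, with D425 in blue and HD-MB03 in orange. D425 shCRX libraries lie below the D425 controls for NOB1 and DDX21, and the HD-MB03 controls stand low for RRN3 and high for NHP2.

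Among the nucleolar chaperones, scaffolds and regulators, DDX21 (ENSG00000165732.8), a helicase that binds ribosomal RNA and snoRNAs, showed opposite estimates in the lines. It was at 807, 742 and 945 CPM in the D425 parental and vector libraries, 505, 558 and 523 in D425 shCRX, 505 and 659 in the parental and vector libraries of HD-MB03, and 929 and 846 in HD-MB03 shCRX. The arms did not overlap in either line. The log2 fold change was -0.65 ± 0.18 in D425 (SE, edgeR adjusted p = 0.0688) and 0.61 ± 0.22 in HD-MB03 (edgeR adjusted p = 0.184), neither called, and their difference was -1.26 ± 0.28 (edgeR adjusted p = 0.0265). The difference was lost without D425 parental replicate 1 (-1.27), the D425 vector library (-1.15), D425 shCRX replicate 3 (-1.25), the HD-MB03 parental library (-1.11) or HD-MB03 shCRX replicate 1 (-1.21) or 2 (-1.34).

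NPM1 and NCL, the most abundant members, were not called for the label. NPM1 (ENSG00000181163.9) was at 2378, 2102 and 2356 CPM in the D425 parental and vector libraries, 1367, 1672 and 1862 in D425 shCRX, 1478 and 2656 in the parental and vector libraries of HD-MB03, and 2394 and 2124 in HD-MB03 shCRX. The D425 arms did not overlap, and the log2 fold change was -0.48 ± 0.22 (SE, edgeR adjusted p = 0.289). NCL (ENSG00000115053.11) was at 1983, 2430 and 1921 CPM in the D425 parental and vector libraries, 994, 1746 and 1270 in D425 shCRX, 1171 and 2239 in the parental and vector libraries of HD-MB03, and 2358 and 2687 in HD-MB03 shCRX. Its D425 arms did not overlap either, and the HD-MB03 parental library held the lower control value for both genes. The log2 fold change of NCL was -0.66 ± 0.26 in D425 (SE, edgeR adjusted p = 0.209). In HD-MB03 it was 0.57 ± 0.32 (edgeR adjusted p = 0.389), with both shCRX libraries above both controls. The difference between the lines was not called (-1.225, edgeR adjusted p = 0.116). Among shCRX libraries NCL was lower in D425 than in HD-MB03 by -0.92 ± 0.29 (SE, edgeR adjusted p = 0.0272).

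MYBBP1A, a nucleolar protein that binds transcription factors, was lower in D425 than in HD-MB03. It was at 91.9, 134 and 82.3 CPM in the D425 parental and vector libraries, 76.2, 159 and 108 in D425 shCRX, 263 and 175 in the parental and vector libraries of HD-MB03, and 142 and 195 in HD-MB03 shCRX. D425 shCRX replicate 2 alone reached above the lowest HD-MB03 library. The line difference was -0.83 ± 0.22 (SE, edgeR adjusted p = 0.00929), lost without the HD-MB03 parental library (-0.66). NOLC1 and GNL3 ranged from 346 to 663 CPM and from 131 to 273 CPM and passed no test.

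In small subunit processing NOB1 (ENSG00000141101.8) fell in D425. It was at 196, 176 and 239 CPM in the D425 parental and vector libraries, 122, 110 and 128 in D425 shCRX, 198 and 156 in the parental and vector libraries of HD-MB03, and 177 and 152 in HD-MB03 shCRX. The D425 shCRX libraries lay below all 7 others, and the HD-MB03 arms overlapped. The group means were 204 ± 32.1 and 119.9 ± 9.31 CPM in D425 (SD, n = 3 per arm), and the log2 fold change was -0.76 ± 0.18 (SE, edgeR adjusted p = 0.043). In HD-MB03 it was -0.10 ± 0.23 (edgeR adjusted p = 0.849), and the difference between the lines was not called (-0.66, edgeR adjusted p = 0.211). The call in D425 was lost with library totals in place of TMM scaling (-0.63, edgeR adjusted p = 0.075) and at equal depth (-0.73). It was also lost without D425 parental replicate 1 (-0.79), the D425 vector library (-0.63), D425 shCRX replicate 1 (-0.79), 2 (-0.73) or 3 (-0.84), or HD-MB03 shCRX replicate 1 or 2 (-0.77 each).

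UTP20 and HEATR1, large scaffold proteins of the small subunit processome, were both lower in D425 than in HD-MB03. UTP20 (ENSG00000120800.4) was at 68.2, 92.1 and 50.1 CPM in the D425 parental and vector libraries, 58.9, 107 and 56.5 in D425 shCRX, 128 and 124 in the parental and vector libraries of HD-MB03, and 151 and 131 in HD-MB03 shCRX. Its line difference was -0.89 ± 0.21 (SE, edgeR adjusted p = 0.00408). Of the member calls for the label, for its difference and for the lines over both arms, this one alone held in all 20 alternatives, between -1.13 and -0.75. For member calls among controls or shCRX libraries alone, the results of the alternatives are not given here. HEATR1 was at 140, 142 and 163 CPM in the D425 parental and vector libraries, 129, 136.3 and 113 in D425 shCRX, 218 and 202 in the parental and vector libraries of HD-MB03, and 265 and 185 in HD-MB03 shCRX. Its line difference was -0.67 ± 0.14 (SE, edgeR adjusted p = 0.00211). Neither gene's lines overlapped.

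NAT10, which acetylates cytidines of the small subunit RNA, and the export factor RRP12 were also lower in D425, less firmly. NAT10 was at 223, 251 and 174 CPM in the D425 parental and vector libraries, 127, 198 and 166 in D425 shCRX, 404 and 243 in the parental and vector libraries of HD-MB03 and 243 and 234 in HD-MB03 shCRX. Its line difference was -0.57 ± 0.18 (SE, edgeR adjusted p = 0.0227), and it did not hold without the HD-MB03 parental library (-0.35), D425 shCRX replicate 1 (-0.44) or HD-MB03 shCRX replicate 1 (-0.55). RRP12 was at 108, 127 and 116.4 CPM in the D425 parental and vector libraries, 102, 135.7 and 84.4 in D425 shCRX, 180 and 110 in the parental and vector libraries of HD-MB03 and 160 and 165 in HD-MB03 shCRX. Its line difference of -0.45 ± 0.17 (SE, edgeR adjusted p = 0.0468) was -0.25 without the HD-MB03 parental library, and its call was lost with library totals (-0.34), no filter (-0.38), limma-voom (-0.45) and the correction for GC content and length (-0.20). It was also lost without D425 parental replicate 1 (-0.44), the D425 vector library (-0.46), D425 shCRX replicate 1 (-0.39) or 3 (-0.38), or HD-MB03 shCRX replicate 1 (-0.46) or 2 (-0.45).

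The other 4 small subunit genes were not called for the label. NOP14, a core processome protein, was at 179, 203 and 216 CPM in the D425 parental and vector libraries, 101, 158 and 125 in D425 shCRX, 183 and 176 in the parental and vector libraries of HD-MB03, and 240.1 and 219 in HD-MB03 shCRX. The arms did not overlap in either line. The log2 fold change in D425 was -0.65 ± 0.19 (SE, edgeR adjusted p = 0.0891), and among shCRX libraries NOP14 was lower in D425 than in HD-MB03 by -0.85 ± 0.21 (SE, edgeR adjusted p = 0.00777). The D425 arms of WDR43 did not overlap either, at 206 to 224 CPM in the controls and 151 to 199 in shCRX. Its HD-MB03 arms lay apart in the other direction, at 167 and 197 CPM in the parental and vector libraries and 229 and 206 in shCRX. BYSL was at 56.5 to 99.7 CPM and RRP9 at 75.1 to 184 CPM over all libraries. The HD-MB03 arms of BYSL did not overlap, at 69.2 and 67.6 CPM in the parental and vector libraries and 99.6 and 99.7 in shCRX. Its log2 fold change there was 0.54 (edgeR adjusted p = 0.261).

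Of the 7 large subunit processing factors, LAS1L alone passed a test, and only between the lines. PES1, a member of the PeBoW complex with WDR12, was at 216, 227 and 188 CPM in the D425 parental and vector libraries, 141, 232 and 144 in D425 shCRX, 203 and 167 in the parental and vector libraries of HD-MB03, and 152 and 192 in HD-MB03 shCRX. All groups overlapped, and no comparison called it. LAS1L, of the complex that cleaves the spacer next to large subunit RNA, was at 195, 231 and 177 CPM in the D425 parental and vector libraries, 137, 239 and 187 in D425 shCRX, 127 and 122 in the parental and vector libraries of HD-MB03, and 144 and 170 in HD-MB03 shCRX. D425 was higher by 0.47 ± 0.17 (SE, edgeR adjusted p = 0.0367). The call was lost without D425 parental replicate 1 (0.48) or 2 (0.41), D425 shCRX replicate 3 (0.47), the HD-MB03 parental (0.49) or vector library (0.47), or HD-MB03 shCRX replicate 1 (0.42) or 2 (0.53).

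Of the other 5, WDR12 was at 93.0 to 166 CPM, NOP2, which methylates large subunit RNA, at 89.3 to 175, RRS1 at 26.8 to 49.4 and NOP16 at 17.4 to 46.9. PPAN was at 5.04 to 10.9 CPM in D425, 2.60 and 4.29 in the parental and vector libraries of HD-MB03, and 8.29 and 7.59 in HD-MB03 shCRX. Its log2 fold change in HD-MB03, 1.20 ± 0.53 (SE, edgeR adjusted p = 0.267), did not pass.

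Of the polyamine and pyrimidine enzymes, only CAD, which starts pyrimidine synthesis, was called, and only between the lines. CAD was at 375, 428 and 349 CPM in the D425 parental and vector libraries, 345, 368 and 343 in D425 shCRX, 547 and 449 in the parental and vector libraries of HD-MB03, and 481 and 433 in HD-MB03 shCRX. All D425 libraries lay below all HD-MB03 libraries, and the line difference was -0.38 ± 0.13 (SE, edgeR adjusted p = 0.0328). The call was lost without D425 parental replicate 1 (-0.38), the D425 vector library (-0.35), D425 shCRX replicate 1 (-0.32) or 3 (-0.37), the HD-MB03 parental library (-0.29) or HD-MB03 shCRX replicate 1 (-0.34) or 2 (-0.42), as well as with library totals (-0.26), no filter (-0.31) and the correction for GC content and length (-0.15).

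ODC1 and SRM, the spermidine synthase, had the highest estimates of all members in D425. ODC1 was at 586, 693 and 324 CPM in the D425 parental and vector libraries, 507, 885 and 599 in D425 shCRX, 611 and 538 in the parental and vector libraries of HD-MB03, and 649 and 733 in HD-MB03 shCRX. The log2 fold changes were 0.31 ± 0.27 in D425 (SE, edgeR adjusted p = 0.618) and 0.27 ± 0.34 in HD-MB03 (edgeR adjusted p = 0.722). SRM was at 111.2 to 164 CPM in the D425 controls, 106 to 226 in D425 shCRX, 237 and 187 in the parental and vector libraries of HD-MB03, and 126 and 143 in HD-MB03 shCRX, and no test called it.

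Other genes of the pathway were counted in the same comparisons. By edgeR, 2.97% of all genes were called in D425, 1.51% in HD-MB03 and 0.225% in the mean of the lines. In the same order, 2768, 2747 and 2118 of the 16006 genes had an unadjusted p under 0.05 by edgeR. DESeq2 called 6.16%, 5.04% and 2.51% of all genes. For the difference the share was 4.16%, and between the lines it was 46.0% (24.4% higher and 21.6% lower in D425). In 4 further lists (other RNA polymerase I genes, snoRNP genes, and small and large subunit genes) 116 of 121 genes were matched and tested. In D425, edgeR called 0 of 116 (14 had an unadjusted p under 0.05, and DESeq2 called 2), with a median of -0.15 and 84 of 116 negative. In HD-MB03, by edgeR 0 rose and 2 fell, WDR74 (-1.22) and NOP53 (-1.18), both large subunit factors, with a median of 0.15. In that line 27 of 116 had an unadjusted p under 0.05, and DESeq2 called 8. In the mean of the lines edgeR called 0 of 116 (10 had an unadjusted p under 0.05, and DESeq2 called 4). The effect of the label differed between the lines for 5, higher in D425 for NOP53 (1.44) and WDR74 (1.38) and lower for TAF1D (-1.58), DDX10 (-1.40) and RIOK1 (-0.99). Without the HD-MB03 parental library none of these 7 calls held, with values in HD-MB03 of -1.11 for WDR74 and -1.29 for NOP53, and differences of 1.54 for NOP53, 1.27 for WDR74, -1.24 for TAF1D, -1.09 for DDX10 and -1.01 for RIOK1. None held without HD-MB03 shCRX replicate 1 (-1.10 and -1.21, then 1.47, 1.26, -1.43, -1.38 and -0.93, in the same order) or replicate 2 (-1.33 and -1.14, then 1.39, 1.49, -1.74, -1.46 and -1.08). Each was lost without at least 1 D425 library too. Between the lines 15 of 116 were higher and 23 lower in D425, led by DDX10 (1.59) and TAF1D (1.47) and by RCL1 (-1.58) and POLR1G (-1.45).

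Of 26 other MYC target genes, edgeR called 0 in either line (3 in D425 and 6 in HD-MB03 had an unadjusted p under 0.05, and DESeq2 called 1 and 3). The label's effect differed between the lines for the chaperonin HSPD1 (-1.19), which was lost without D425 parental replicate 1 (-1.16) or 2 (-1.20), the D425 vector library (-1.22), D425 shCRX replicate 3 (-1.17), the HD-MB03 parental library (-1.07) or HD-MB03 shCRX replicate 1 (-1.07) or 2 (-1.33). Between the lines 1 was higher in D425, PRMT3 (0.84), and 12 were lower, led by UNG (-1.13), PPRC1 (-1.08) and HK2 (-1.07). For this list and those that follow, the share of all genes called between the lines was 46.0%. Among 11 tested genes of the MYC family and its partners, MXD1 (0.74) and MLX (0.61) were higher in D425, and 4 were lower, MYC, MLXIP (-0.50) and MGA (-0.47) among them. The call of MXD1 was lost with parental controls alone (0.66). That of MLXIP was lost with vector controls alone (-0.49), the GC and length correction (-0.16) and without the HD-MB03 parental library (-0.43). MGA lost its call in 12 of 20 alternatives, among them leaving out D425 parental replicate 1 or 2 (-0.47 each), the D425 vector library (-0.49), D425 shCRX replicate 3 (-0.37), HD-MB03 shCRX replicate 1 (-0.36) or either HD-MB03 control (-0.40 without the parental and -0.52 without the vector library). For the label edgeR called 0 of the 11 (4 in D425 and 3 in HD-MB03 had an unadjusted p under 0.05, and DESeq2 called 0 and 2). Of 10 tested polyamine genes, 5 were higher in D425, led by the arginase ARG2 (3.42), SAT1 (1.97) and AZIN2 (1.65), and AMD1 (-1.33), which supplies the aminopropyl donor, was lower. The value of ARG2 was 4.92 with vector controls alone and 4.81 without the HD-MB03 parental library, and AZIN2 lost its call with vector controls alone (1.33). SAT1 was at 2.15 to 7.15 CPM in 3 HD-MB03 libraries and at 57.7 in shCRX replicate 2, without which the value was 3.05. Its call was lost without the HD-MB03 vector library (1.69), with no filter (2.04) and with vector (2.63) or parental controls alone (1.60). Of 18 nucleotide synthesis genes, 2 were higher in D425, ATIC (0.48) and IMPDH2 (0.42), and 5 were lower, led by CTPS2 (-6.19), ADSS2 (-1.36) and GMPS (-1.25). ATIC lost its call without HD-MB03 shCRX replicate 2 (0.44) and with vector (0.46) or parental controls alone (0.48). IMPDH2 lost its call in 8 of 20 alternatives, among them the GC and length correction (0.23) and leaving out D425 parental replicate 1 (0.40), the D425 vector library (0.41), D425 shCRX replicate 3 (0.36), HD-MB03 shCRX replicate 2 (0.36) or the vector library of HD-MB03 (0.39). CTPS2, a CTP synthase, was at 0.0807 to 2.05 CPM in the D425 libraries and 33.7 to 46.7 CPM in HD-MB03, and its difference was -7.03 with vector controls alone and -6.97 without D425 parental replicate 1. For the label edgeR called 0 of the polyamine genes (3 in each line had an unadjusted p under 0.05, and DESeq2 called 1 in D425 and 0 in HD-MB03) and 0 of the nucleotide genes (4 in each line, and 0 by DESeq2).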

How the data were processed

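Poly(A) RNA of 10 libraries was sequenced, and the authors deposited 1 table of raw read counts per gene for each, not normalized. The tools named in the submitters' processing notes are bcl2fastq, HISAT2, HTSeq and DESeq2, with the genome build GRCh37 (hg19). Tool versions and strand setting are not given in the sources used here. In each file 5 summary rows, such as reads that did not align, entered neither library sizes nor tests.

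Counts were tested in R 4.3.3 with edgeR 4.0.16 (TMM scaling, filterByExpr on 4 groups of line and arm, robust quasi-likelihood fit, 6 residual degrees of freedom, biological coefficient of variation 26%). Tests were two-sided, and a gene was called at a Benjamini-Hochberg adjusted p under 0.05 over all 16006 genes. The members and gene lists were chosen with earlier results of these data known. Members called in a comparison, and the highest per length in each role, are given in every library, and other lists by up to 3 called genes per direction. CPM are counts per 1000000 of the effective library size. Symbols came from a separate list of gene names, matched by Ensembl identifier without its version. Exon lengths and GC content came from GENCODE v29 (GRCh38), another build than that of the counts, so positions are given only for the RefSeq promoter sites. In the lists, ZNHIT3, AATF, DDX52, BOP1, NOL12 and PECAM1 were not matched.

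A floor of 3 counts corresponds to 0.166 to 1.53 CPM (counting error only). No libraries were identical (0 pairs), and within groups chi-square per degree of freedom was 10.03 to 58.72. The labels do not state separate cultures, so p-values reflect spread between libraries that may be technical only. Alternatives were other scalings, no filter, DESeq2 1.42.0, limma-voom (limma 3.58.1), vector or parental controls alone, a replicate block, equal depth, a correction for GC content and length, and leaving out each library.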

Additional observations from a re-analysis of the deposited data

Results flagged for a closer look

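For 8 genes of ribosome biogenesis or MYC target lists, and for CRX, the effect of the shCRX label differed between the lines by the test of the difference itself (edgeR, D425 minus HD-MB03, log2). The 8 were 2 of 35 members, 5 of 116 other ribosome biogenesis genes and 1 of 26 other MYC targets. Of all genes tested, 4.16% were called, so these counts stood at about the background share. Among the members the difference was -1.31 for RRN3 and -1.26 for DDX21. Among other ribosome biogenesis genes it was -1.58 for TAF1D, -1.40 for DDX10, -0.99 for RIOK1, 1.44 for NOP53 and 1.38 for WDR74, and among other MYC targets it was -1.19 for HSPD1. For CRX it was -2.14. All of these differences lie along the split of the library numbers. A correction for GC content and length ended the calls of the 8 genes other than CRX. The corrected differences were -0.96 for RRN3, -0.90 for DDX21, -1.05 for TAF1D, -1.04 for DDX10, -0.80 for RIOK1, 0.95 for NOP53, 1.15 for WDR74 and -0.95 for HSPD1, with edgeR adjusted p-values from 0.0636 to 0.217. The CRX difference was lost with limma-voom (-2.06), with vector (-2.61) or parental (-1.87) controls alone, and without the HD-MB03 parental (-2.18), HD-MB03 vector (-2.17) or HD-MB03 shCRX replicate 1 library (-2.03). Groups of 2 or 3 libraries were too small to test for a library that stands apart.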

How the results depend on the processing

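No value changed sign where it was called. Counts of members are given with the share of all genes called under the same setting. In D425, where 1 member was called (2.97% of all genes), 0 were called with library totals (3.24%), with vector (0.0481%) or parental (0.609%) controls alone and at equal depth (2.5%), 4 without a filter (3.85%), 3 with DESeq2 (6.16%), and 0 to 1 when each library was left out (1.19% to 2.67%). In HD-MB03, where 2 were called (1.51%), 1 was called with DESeq2 size factors (1.70%), limma-voom (1.06%), equal depth (1.72%) and the correction for GC content and length (1.09%), 0 with vector (0.00602%) or parental (0.363%) controls alone, and 0 to 2 when each library was left out (0.0912% to 2.05%). In the mean of the lines, where 0 were called (0.225%), 1 was called without a filter (1.29%) and with DESeq2 (2.51%), and 0 when any library was left out (0.0182% to 0.423%). For the difference between the lines, where 2 were called (4.16%), 6 were called without a filter (5.03%), 5 with DESeq2 (8.56%), 4 at equal depth (4.56%), 1 with parental controls alone (1.33%), 0 with vector controls alone (0.018%) or the correction (2.21%), and 0 to 6 when each library was left out (1.03% to 5.27%). Between the lines, where 11 were called (46.0%), 1 was called with vector controls alone (27.7%), and 4 to 13 when each library was left out (34.5% to 49%), with 4 without the HD-MB03 parental library and 5 and 7 without HD-MB03 shCRX replicates 1 and 2. The cause was not tested, other than that controls alone and left-out libraries leave fewer samples. Leaving out each library gave median log2 fold changes of -0.43 to -0.12 in D425, 0.13 to 0.20 in HD-MB03, -0.15 to 0.02 in the mean, -0.53 to -0.24 for the difference and -0.26 to -0.10 between the lines. With library totals the median of all genes in D425 moved from 0.02 to 0.15 and that of the members from -0.23 to -0.10, and 70.8% of the called genes were higher, against 54.0%. Between the lines these medians moved from 0.05 to 0.16 and from -0.23 to -0.12.

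D425 parental and shCRX libraries numbered 1 and 2 have only the number in common, and their deviations had a correlation of 0.019 across genes. With the replicate block 2 members were called in D425 in place of 1 (3.66% of all genes in place of 2.97%).

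The HD-MB03 controls were the shallowest libraries, with 2083297 and 1956353 counts. Where a left-out library leaves 1 in an arm, that library is assumed to vary like the other groups.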
